A study of Drosophila melanogaster with 18 samples.

Results

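The 7 genes described here make or remove reactive oxygen species in Drosophila melanogaster and were chosen by name for that role. They are Nox and Duox, which encode the NADPH oxidases, mol (moladietz), which encodes the maturation factor of Duox, Sod1, Sod2 and Sod3, which encode superoxide dismutases, and Cat, which encodes catalase. They are 7 of 17529 genes in the deposited count table, and all 7 were among the 10834 genes with enough counts to be tested. None of them lies on chromosome arm 3R, where the mutated genes lie.

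As background, NADPH oxidases pass electrons from NADPH across a membrane to oxygen. Nox makes superoxide, and Duox carries a peroxidase-like domain and releases hydrogen peroxide outside the cell. A maturation factor such as mol is needed to bring a dual oxidase to the cell surface. Superoxide dismutases turn superoxide into hydrogen peroxide, with Sod1 in the cytosol, Sod2 in mitochondria and Sod3 outside the cell, and catalase, a peroxisomal enzyme, breaks hydrogen peroxide down to water and oxygen. In imaginal discs of the fly, reactive oxygen species are known from regeneration, wounding and tumour models, where they act both upstream and downstream of the stress kinase JNK.

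Messenger RNA was measured by RNA sequencing of eye-antennal discs, larval sacs of epithelium from which the eyes, antennae and much of the head arise, from larvae of the third instar reared at 25 °C. There were 18 libraries, 3 for each of 6 genotypes, and all 6 carried eyFLP and an FRT82B Cell lethal chromosome over the tested FRT82B chromosome. In this design an eye-specific flippase drives recombination, so that cells homozygous for the tested arm take over much of the disc while other cells of the larva stay heterozygous. The tested chromosome was FRT82B alone in the control. It carried scrib1 in the genotype called scrib, fosKM in fos and CtBP87De-10 in CtBP. The double mutants were scrib1 fosKM (scrib fos) and scrib1 CtBP87De-10 (CtBP scrib). scrib encodes the cell polarity protein Scribble, fos (listed as kay) the Fos subunit of the AP-1 transcription factor that acts below JNK, and CtBP a transcriptional corepressor. Cells were sorted, by a gate not given in the sources used here, and RNA of sorts from different days was pooled into 3 samples of 180 to 330 ng per genotype. The labels do not say that the pools came from separate crosses, so the p-values here reflect the spread among these pools and no more.

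Total counts per library ran from 22294940 to 35510575. CtBP transcript was lower in the mutants that bear its name, at 287 ± 8.05 CPM (counts per 1000000 counts of a library, scaled with TMM factors; SD, n = 3) in CtBP and 343 ± 15.2 CPM in CtBP scrib against 822 ± 14.9 CPM in control. The transcripts of scrib and kay do not mark their mutants, at 411 ± 50.0 CPM of scrib in scrib against 473 ± 11.8 CPM in control, and 103 ± 10.1 CPM of kay in fos against 109 ± 25.0 CPM in control (SD, n = 3). All 9 markers of the eye-antennal disc (such as ey, eya, dac and Dll) were detected. Their summed level, without TMM factors as for the other marker sums, was 3090 to 3210 CPM in control, 1940 to 2190 in scrib, 2580 to 2960 in scrib fos and 1580 to 1650 in CtBP scrib. Against control 7 were called lower and 0 higher in scrib, 4 lower and 2 higher in scrib fos, and 8 lower and 0 higher in CtBP scrib. The most abundant of them, hth, stood at 1170 CPM in control and 1213 in CtBP scrib, while gl stood at 245 and 23.5 CPM. In every genotype replicate 1 stood apart from replicates 2 and 3 in its counts over all genes and had the highest share of Hsp70 counts, and each call on the 7 genes that is lost without these 6 libraries is given with its value. Further genes were not tested without them. Summed markers of blood cells were 409 to 569 CPM in control, 200 to 239 in scrib, 154 to 158 in CtBP scrib and 124 to 148 in scrib fos. Of these 9 markers 6 were called lower and 1 higher in scrib, and 8 lower and 0 higher in CtBP scrib and scrib fos. Their median log2 fold change against control was -0.83 in scrib, -1.31 in CtBP scrib and -3.96 in scrib fos. The highest means in scrib fos were those of crq (79.4 CPM, 78.0 in control) and lz (45.7, 71.1 in control), while Hml stood at 2.71 CPM against 44.7. Markers of myoblasts and muscle summed to 141 to 154 CPM in scrib fos against 272 to 295 in control (5 of 8 called lower), and those of glia to 330 to 367 against 427 to 436 (6 of 8 called lower). In scrib and in CtBP scrib 4 of the 8 glial markers were called lower and 3 higher. For the disc, blood cell, muscle and glial counts above, the background is the share of all tested genes called against control. That share was 25.7% lower and 27.8% higher for scrib. For CtBP scrib it was 28.3% lower and 31.1% higher. With scrib fos the shares were 24.5% and 22.1%. The glial gene repo stood at 16.05 CPM in control, 4.50 in scrib, 2.99 in CtBP scrib and 7.24 in scrib fos. For moody the means were 29.2, 66.5, 83.0 and 9.27 CPM in the same order. Tracheal markers summed to 1210 to 1290 CPM in control and 1730 to 1780 in scrib. Their sum was 1880 to 2220 CPM for CtBP, 1760 to 1950 for scrib fos and 2980 to 3140 for CtBP scrib, most of it from the chitin-related genes Gasp, serp and verm. The defining tracheal genes trh and btl were at 1.31 ± 0.675 and 5.31 ± 0.45 CPM in control and 0.775 ± 0.603 and 5.17 ± 0.703 CPM in CtBP scrib (SD, n = 3). The part of these shifts in the results on the 7 genes was not tested.

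Levels of the 7 genes can be set beside each other only per length of transcript. In control, Sod1 had the highest level per kb of exon, at 275 ± 1.90 CPM per kb (SD, n = 3 here and for the next 6 values). Cat followed at 140 ± 11.5, Sod3 at 125 ± 2.96 and Sod2 at 71.5 ± 2.15 CPM per kb. Duox stood at 32.5 ± 1.40 CPM per kb and Nox at 3.33 ± 0.389. The lowest was mol, at 0.702 ± 0.159 CPM per kb. The enzymes that remove oxidants were therefore more abundant as transcripts than Nox, Duox or mol, in control and in each of the 5 mutant genotypes.

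**Figure D1:**
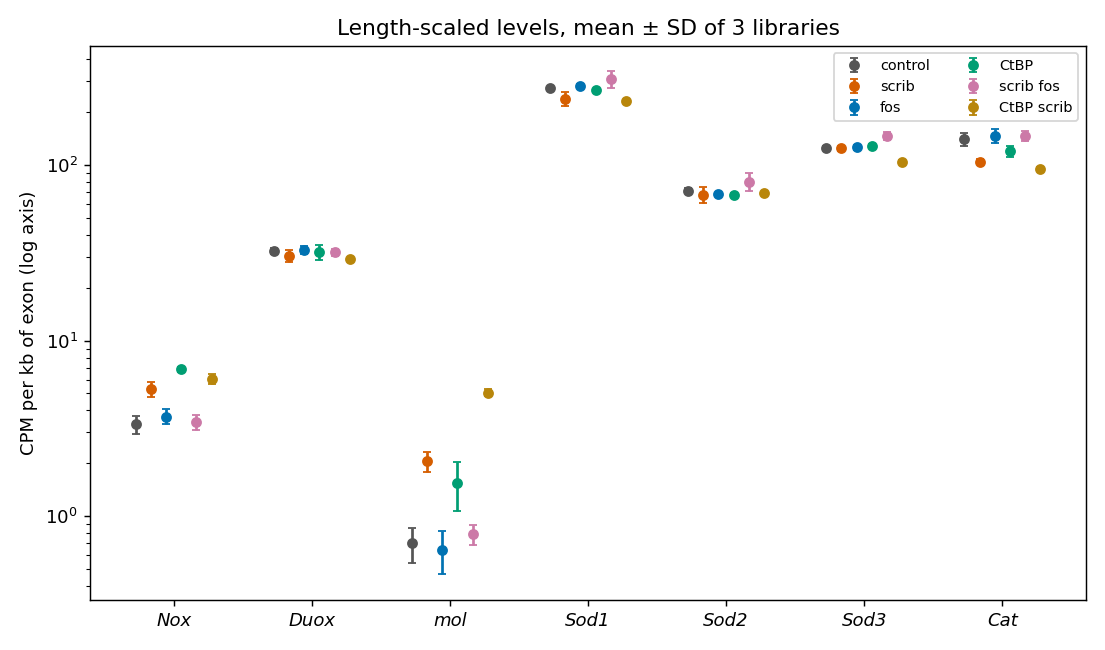
Levels of the 7 genes in CPM per kb of exon on a log axis, as the mean of 3 libraries with its SD, coloured by genotype. Sod1 stands highest (275 in control) and mol lowest (0.702 in control), and the spread between genotypes is widest for mol.

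Nox (FBgn0085428) lies on the plus strand of chromosome 2R at 16307269 to 16316485 (dm6) and has 6586 bases of exon. The control libraries read 20.2, 20.7 and 24.9 CPM, and those of scrib 36.1, 37.4 and 31.1. CtBP libraries read 44.4, 46.5 and 44.4 CPM, and those of CtBP scrib 42.8, 38.5 and 38.5. The libraries of fos, at 22.9, 27.1 and 23.0 CPM, and of scrib fos, at 24.1, 20.2 and 23.6 CPM, overlapped with control. Nox was thus high in 3 genotypes, scrib, CtBP scrib and CtBP in rising order of means. The libraries of these 3 overlapped neither with each other nor with the 3 low genotypes. The gaps among the 3 were narrow, at 37.4 against 38.5 CPM and 42.8 against 44.4 CPM. The edgeR quasi-likelihood test called neither step. CtBP scrib stood at log2 0.20 against scrib (adjusted p = 0.137) and at -0.17 against CtBP (adjusted p = 0.0972). The share of all tested genes whose libraries separate so was not counted, here or for the other genes. In these bulk samples, fewer cells of a type and less RNA per cell cannot be told apart, here or for the other genes. An exon stretch of 173 bases is shared with CG8060 on the other strand, and no source used here gives the strand setting of the counting. CG8060 stood at 28.5 to 36.1 CPM over all libraries and did not rise with Nox, with log2 fold changes against control of -0.13 in scrib (adjusted p = 0.063), 0.07 in CtBP (0.497) and -0.16 in CtBP scrib (0.0212).

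Duox (FBgn0283531, 2L, 2815970 to 2830248, minus strand) varied little. Control libraries read 178, 177 and 165 CPM, scrib libraries 175, 162 and 150, and fos libraries 170, 171 and 185. CtBP libraries read 153, 183 and 176 CPM, those of scrib fos 172, 162 and 175, and those of CtBP scrib 159, 157 and 154. Genotypes next to each other in the order of means, from CtBP scrib at 156 ± 2.27 to fos at 176 ± 8.28 CPM (SD, n = 3), all overlapped. The CtBP scrib libraries all lay below every library of control, fos and scrib fos.

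The maturation factor mol (FBgn0086711, 2L, 14975747 to 14997559, minus strand) had the lowest counts, 34 to 422 per library, and the widest range. The control libraries read 1.57, 2.31 and 2.47 CPM, and those of fos 2.27, 2.22 and 1.32. scrib fos libraries read 2.52, 2.59 and 2.02 CPM, those of CtBP 6.26, 4.18 and 3.51, and those of scrib 5.40, 7.01 and 6.20. The CtBP scrib libraries, at 15.6, 15.6 and 14.4 CPM, stood apart above all others. CtBP and scrib overlapped with each other, as did the 3 low genotypes control, fos and scrib fos, and no library of the former pair reached down to the latter 3.

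**Figure D2:**
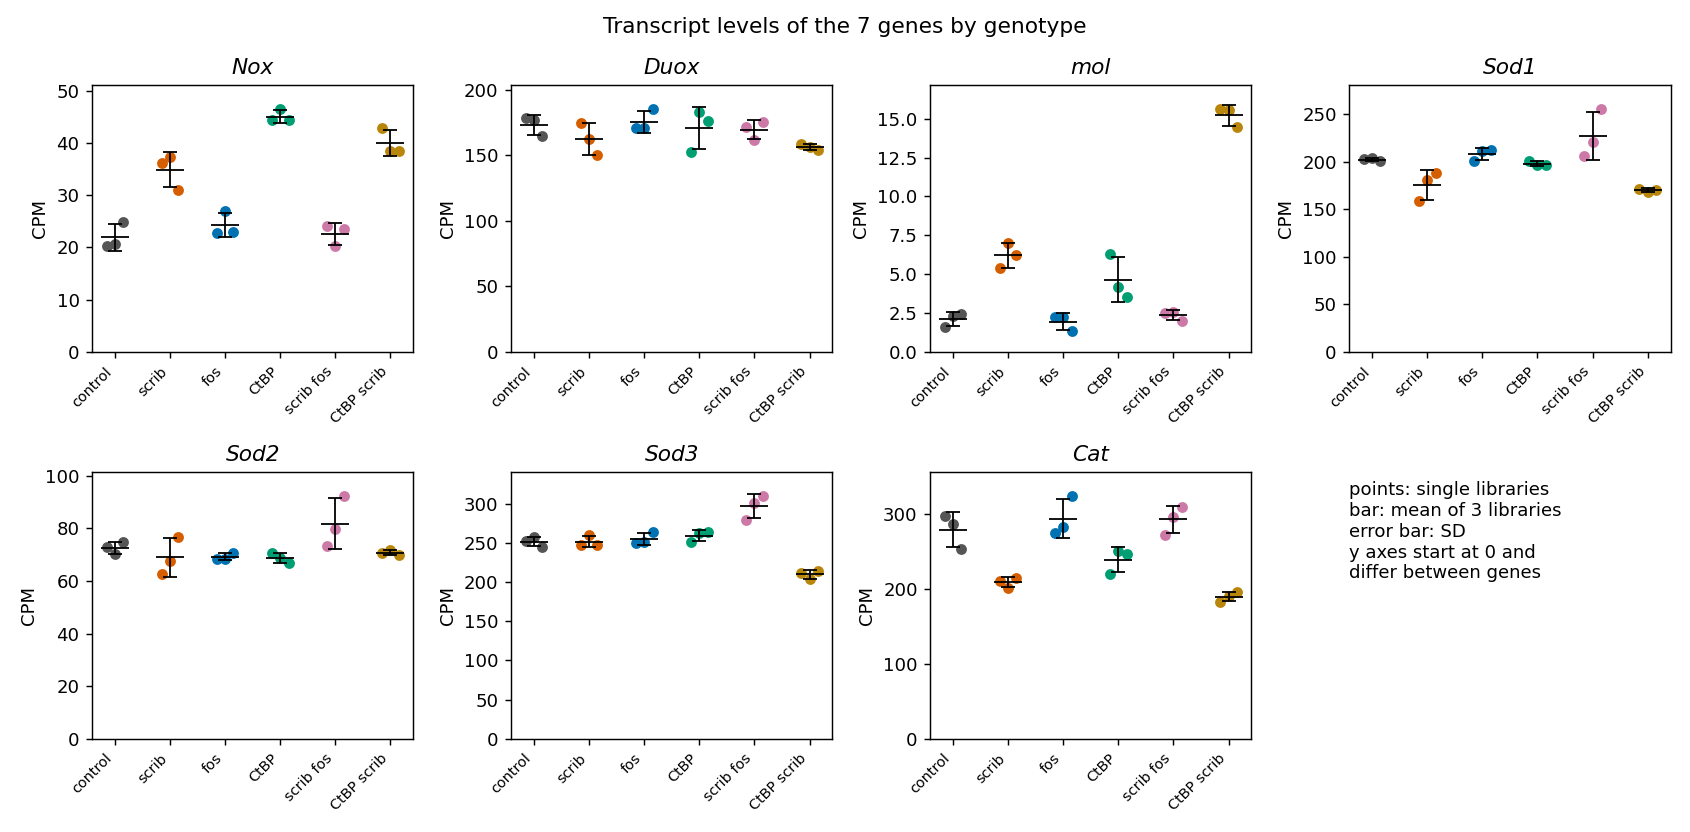
CPM of each gene in every library (points) by genotype, with the mean of 3 libraries and its SD, on axes that start at 0. For mol the 3 CtBP scrib libraries stand at 14.4 to 15.6 CPM against 1.57 to 2.47 in control, and for Cat at 183 to 195 CPM against 253 to 297.

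The cytosolic dismutase Sod1 (FBgn0003462, 3L, 11112281 to 11113740, minus strand) read 202, 203 and 201 CPM in control and 158, 180 and 188 in scrib. In CtBP scrib it read 172, 168 and 170 CPM, below every control library. The CtBP libraries, at 201, 197 and 196 CPM, and those of fos, at 201, 211 and 213, overlapped with control. In scrib fos the libraries read 206, 220 and 255 CPM, all above control but widely spread, with replicate 3 the highest of all 18.

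Sod2 (FBgn0010213, 2R, 16772785 to 16773915, minus strand), the mitochondrial enzyme, was the steadiest of the dismutases across genotypes. It read 72.8, 70.3 and 74.7 CPM in control, 62.5, 67.5 and 76.9 in scrib and 68.4, 68.5 and 70.7 in fos. The libraries of CtBP read 70.6, 68.6 and 66.8 CPM, those of CtBP scrib 70.5, 71.9 and 70.1, and those of scrib fos 73.3, 79.7 and 92.4. Neighbours in the order of means all overlapped, and scrib fos replicate 3 was again the highest library. The scrib fos libraries all lay above every library of fos, CtBP and CtBP scrib.

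Sod3 (FBgn0033631, 2R, 11380347 to 11384114, minus strand), the extracellular enzyme, separated the double mutants. The libraries of control read 253, 257 and 245 CPM, those of scrib 247, 260 and 248, those of fos 250, 251 and 264 and those of CtBP 251, 263 and 264. All 4 of these genotypes overlapped. The scrib fos libraries, at 280, 302 and 310 CPM, stood above them, and those of CtBP scrib, at 212, 204 and 215 CPM, below.

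Cat (FBgn0000261, 3L, 18822604 to 18828188, plus strand) was lowest where mol was highest. Control libraries read 297, 286 and 253 CPM, fos libraries 275, 282 and 324, and scrib fos libraries 272, 296 and 309. CtBP libraries read 219, 251 and 247 CPM, those of scrib 211, 201 and 214, and those of CtBP scrib 183, 190 and 195. The latter 3 genotypes overlapped neither with each other nor with control, whereas control, fos and scrib fos overlapped. The gap between CtBP and control was narrow, at 251 against 253 CPM. The difference between CtBP scrib and scrib was not called (log2 -0.14, adjusted p = 0.199, edgeR quasi-likelihood test).

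The comparison of scrib with control asks what loss of the polarity protein goes with. Nox and mol rose and Cat and Sod1 fell, so that transcripts of an oxidase and of the dual oxidase maturation factor were higher and those of 2 removing enzymes lower. The rise of mol was 2.93-fold (log2 fold change 1.55, SE 0.212, adjusted p = 4.59e-06, edgeR quasi-likelihood test, as for all adjusted p-values below). Nox rose 1.59-fold (log2 0.67, SE 0.09, adjusted p = 3.89e-06), and Cat fell by 0.42 on the log2 scale (SE 0.071, adjusted p = 4.22e-05). Sod1 fell by 0.20 (SE 0.065, adjusted p = 0.0125), a call that rests on replicate 1 of scrib: without that library its log2 fold change was -0.12 (adjusted p = 0.127), and without replicate 1 of every genotype -0.13 (adjusted p = 0.0736). Duox (log2 -0.09, 95% interval -0.23 to 0.05), Sod2 (-0.07, -0.23 to 0.08) and Sod3 (0.00, -0.10 to 0.10) did not pass the test. These 4 calls in 7 genes stand beside a background of 53.5% of all tested genes called, 27.8% higher and 25.7% lower, and the median log2 fold change was -0.07 over the 7 genes and 0.01 over all tested genes. With library totals in place of TMM factors, the share of called genes that were higher went from 52% to 38.1%. On that scale the 4 calls stayed, and Duox was called as lower too (-0.17, adjusted p = 0.0421).

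In fos against control none of the 7 genes passed the test, and none had an unadjusted p under 0.05 in edgeR. The log2 fold changes ran from -0.11 for mol (95% interval -0.64 to 0.41) to 0.15 for Nox (-0.05 to 0.35), and DESeq2 called none either. The interval for mol is wide, and its counts were 34 to 70 per library in these genotypes. Of all tested genes 0.997% were called, 0.258% higher and 0.738% lower, and the median was 0.02 over the 7 genes and 0.00 over all.

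CtBP against control shows Nox at its highest. Nox rose 2.06-fold (log2 1.04, SE 0.089, adjusted p = 6.37e-08) and mol 2.21-fold (log2 1.14, SE 0.216, adjusted p = 0.000925), while Cat fell by 0.22 on the log2 scale (SE 0.07, adjusted p = 0.0363). Without replicate 1 of every genotype the log2 fold change of mol was 0.69 (adjusted p = 0.0388). The call for Cat was lost in the same setting (log2 -0.12, adjusted p = 0.356). It was also lost without control replicate 1 (-0.18, adjusted p = 0.15), control replicate 2 (-0.21, adjusted p = 0.0999) or CtBP replicate 1 (-0.17, adjusted p = 0.168), and with both genotypes fitted alone (-0.23, adjusted p = 0.0547). Duox, Sod1, Sod2 and Sod3 did not pass the test, with log2 fold changes of -0.08 to 0.04. Against these 3 calls stand 14.5% of all tested genes called, 7% higher and 7.46% lower, and the medians were -0.02 over the 7 genes and 0.01 over all tested genes. The higher share of called genes went from 48.4% to 33% with library totals, with no change of call in the 7 genes.

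**Figure D3:**
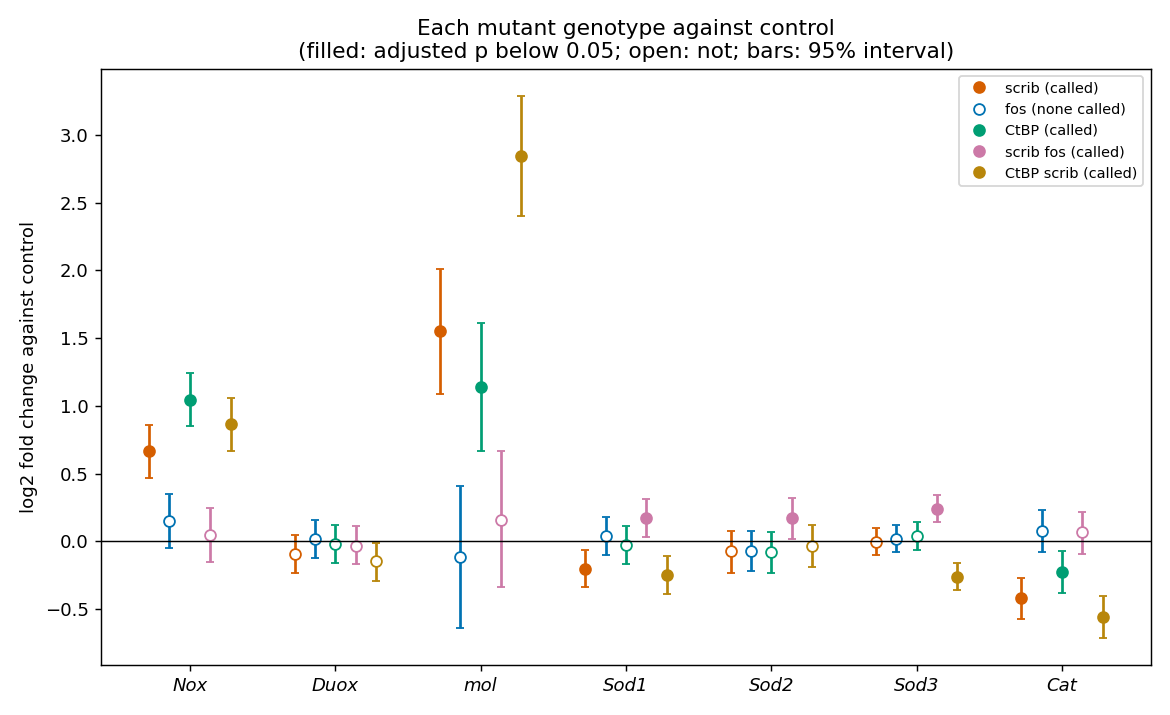
Log2 fold change of each gene against control in the 5 mutant genotypes, with 95% intervals; filled points passed the test at an adjusted p below 0.05. mol reaches 2.85 in CtBP scrib and Nox 1.04 in CtBP, and Duox has no filled point.

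In scrib fos against control, Nox and mol did not pass the test, and the dismutases rose slightly. Nox had a log2 fold change of 0.05 (95% interval -0.15 to 0.25), mol of 0.16 (-0.34 to 0.67) and Cat of 0.07 (-0.09 to 0.22). Sod3 rose 1.18-fold (log2 0.24, SE 0.046, adjusted p = 0.000277). Sod1 (log2 0.17, adjusted p = 0.0389) and Sod2 (log2 0.17, adjusted p = 0.049) passed narrowly, and without scrib fos replicate 3 they stood at 0.10 (adjusted p = 0.202) and 0.09 (adjusted p = 0.261). The call for Sod1 was also lost without control replicate 1, 2 or 3 (adjusted p = 0.0577, 0.0507 and 0.0574), and that for Sod2 without control replicate 1 or 2 (adjusted p = 0.0729 and 0.109). Of all tested genes 46.6% were called, 22.1% higher and 24.5% lower, beside 3 of the 7 genes, and the medians were 0.16 over the 7 genes and -0.02 over all. The higher share of these calls was 47.4%, and 38.4% with library totals, where Sod1 (0.13, adjusted p = 0.102) and Sod2 (0.14, adjusted p = 0.11) did not pass.

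Set against scrib alone, scrib fos had lower Nox and mol and higher Cat and dismutases. mol fell by 1.39 on the log2 scale (SE 0.207, adjusted p = 2.26e-05) and Nox by 0.62 (SE 0.09, adjusted p = 1.58e-05). Cat rose 1.40-fold (log2 0.49, SE 0.071, adjusted p = 1.26e-05), Sod1 1.29-fold (log2 0.37, adjusted p = 0.000112), Sod3 1.18-fold (log2 0.24, adjusted p = 0.000302) and Sod2 1.19-fold (log2 0.25, adjusted p = 0.00859). The call for Sod2 was lost without scrib fos replicate 3 (log2 0.15, adjusted p = 0.0669) or scrib replicate 1 (0.18, adjusted p = 0.055), and with these genotypes fitted alone (0.25, adjusted p = 0.0675). So 6 of the 7 genes were called, all but Duox (log2 0.06, 95% interval -0.08 to 0.20), where the background was 37.8%, with 17.6% higher and 20.2% lower. The higher share of these calls was 46.5%, and 56.2% with library totals or 53% with DESeq2 size factors. The medians were 0.24 over the 7 genes and 0.00 over all tested genes. This comparison and that with control share the scrib fos libraries.

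Against fos, scrib fos had higher Sod2 (log2 0.24, SE 0.07, adjusted p = 0.00776) and Sod3 (log2 0.22, SE 0.046, adjusted p = 0.000555). Without scrib fos replicate 3 the value of Sod2 was 0.16 (adjusted p = 0.0484). The other 5 genes did not pass the test: Nox was at -0.10 (95% interval -0.30 to 0.10), mol at 0.27 (-0.24 to 0.79), Cat at -0.01, Duox at -0.05 and Sod1 at 0.13 on the log2 scale. Without scrib fos replicate 1 Sod1 did pass (log2 0.19, adjusted p = 0.0198). Here 47.4% of tested genes were called, 23% higher and 24.4% lower, beside 2 of the 7, and the medians were 0.13 and -0.01.

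CtBP scrib against control gave the widest gap for mol. It rose 7.20-fold (log2 2.85, SE 0.203, adjusted p = 3.63e-10), and Nox rose 1.82-fold (log2 0.87, SE 0.09, adjusted p = 8.39e-08). Cat fell by 0.56 on the log2 scale (SE 0.071, adjusted p = 8.89e-07), Sod3 by 0.26 (SE 0.047, adjusted p = 6.29e-05) and Sod1 by 0.25 (SE 0.065, adjusted p = 0.00243). Duox missed the threshold (log2 -0.15, 95% interval -0.29 to -0.01, adjusted p = 0.0516) and passed it in 7 of 14 other settings, among them without control replicate 3 (-0.17, adjusted p = 0.0418). Sod2 was at -0.04 (-0.19 to 0.12). Of all tested genes 59.4% were called, 31.1% higher and 28.3% lower, and of the 7 genes 5, with medians of -0.15 over the 7 and 0.01 over all. The 5 comparisons with control share its 3 libraries. With library totals the median of all genes was -0.126, and the higher share of calls went from 52.3% to 33.1%. On that scale Sod1 was at -0.39 and Sod3 at -0.40, and Sod2 passed the test as lower (-0.17, adjusted p = 0.0352).

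Compared with scrib alone, CtBP scrib had 2.45-fold more mol (log2 1.29, SE 0.181, adjusted p = 2.42e-05) and less Sod3 (log2 -0.26, SE 0.047, adjusted p = 0.000311). Nox did not pass the test (log2 0.20, 95% interval 0.01 to 0.39, adjusted p = 0.137), nor did Cat (-0.14, -0.29 to 0.01), Duox, Sod1 or Sod2. Calls covered 18.7% of all tested genes, 9.57% higher and 9.14% lower, and the medians were -0.05 over the 7 genes and 0.00 over all. The higher share went from 51.2% to 33.2% with library totals.

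Compared with CtBP alone, CtBP scrib had 3.26-fold more mol (log2 1.70, SE 0.184, adjusted p = 1.78e-07). Cat fell by 0.34 on the log2 scale (SE 0.071, adjusted p = 0.000438), Sod3 by 0.30 (SE 0.047, adjusted p = 1.2e-05) and Sod1 by 0.22 (SE 0.065, adjusted p = 0.00698). Nox was at -0.17 (95% interval -0.36 to 0.01, adjusted p = 0.0972) and Duox at -0.13 (-0.26 to 0.01), which passed the test without CtBP replicate 1 (-0.20, adjusted p = 0.00771). The background was 55.5%, with 28.9% higher and 26.6% lower, and the medians were -0.17 over the 7 genes and 0.00 over all. With library totals 37.4% of the called genes were higher in place of 52%, and Nox (-0.26, adjusted p = 0.0105) and Duox (-0.21, adjusted p = 0.0108) passed the test as lower.

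Between the double mutants, CtBP scrib had 6.44-fold more mol (log2 2.69, SE 0.199, adjusted p = 9.83e-10) and 1.76-fold more Nox (log2 0.82, SE 0.09, adjusted p = 2.49e-07) than scrib fos. Cat was lower by 0.63 on the log2 scale (log2 -0.63, SE 0.071, adjusted p = 2.62e-07), and Sod3 (-0.50, adjusted p = 1.52e-08), Sod1 (-0.42, adjusted p = 1.73e-05) and Sod2 (-0.21, adjusted p = 0.0185) were lower too. Without scrib fos replicate 3 Sod2 no longer passed (-0.12, adjusted p = 0.136). Duox did not pass (-0.12, 95% interval -0.26 to 0.02), but was called as lower with library totals (-0.21, adjusted p = 0.0107), with no filter (-0.16, adjusted p = 0.041) and with these genotypes fitted alone (-0.13, adjusted p = 0.045). Calls reached 49.2% of all tested genes, 26% higher and 23.2% lower, against 6 of the 7 genes, and the medians were -0.21 and 0.00. With library totals 34.8% of the calls were higher in place of 52.8%.

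Whether the difference that goes with scrib1 is the same with and without fosKM was tested as an interaction, the log2 difference of scrib fos from fos minus that of scrib from control. It was negative for Nox (-0.77, SE 0.128, adjusted p = 0.000164) and mol (-1.28, SE 0.319, adjusted p = 0.00606). It was positive for Cat (0.41, SE 0.1, adjusted p = 0.00436), Sod1 (0.33, SE 0.092, adjusted p = 0.0124), Sod3 (0.22, SE 0.066, adjusted p = 0.0171) and Sod2 (0.32, SE 0.099, adjusted p = 0.0258). The sign for Nox, mol, Cat and Sod1 is opposite to that of their change in scrib. Since the interaction subtracts that change, its sign is not independent of it. The call for Sod2 was lost in 7 of 20 other settings, without control replicate 3, fos replicate 1 or 2, scrib replicate 1 or 2 or scrib fos replicate 3 (adjusted p = 0.0548 to 0.0699) and with the 4 genotypes alone (0.0531). Duox had an interaction of 0.04 (95% interval -0.15 to 0.24). Over all tested genes 23.2% were called, 10.6% positive and 12.7% negative, beside 6 of the 7, and the medians were 0.22 and 0.00. The positive share went from 45.5% to 60.8% with library totals.

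**Figure D4:**
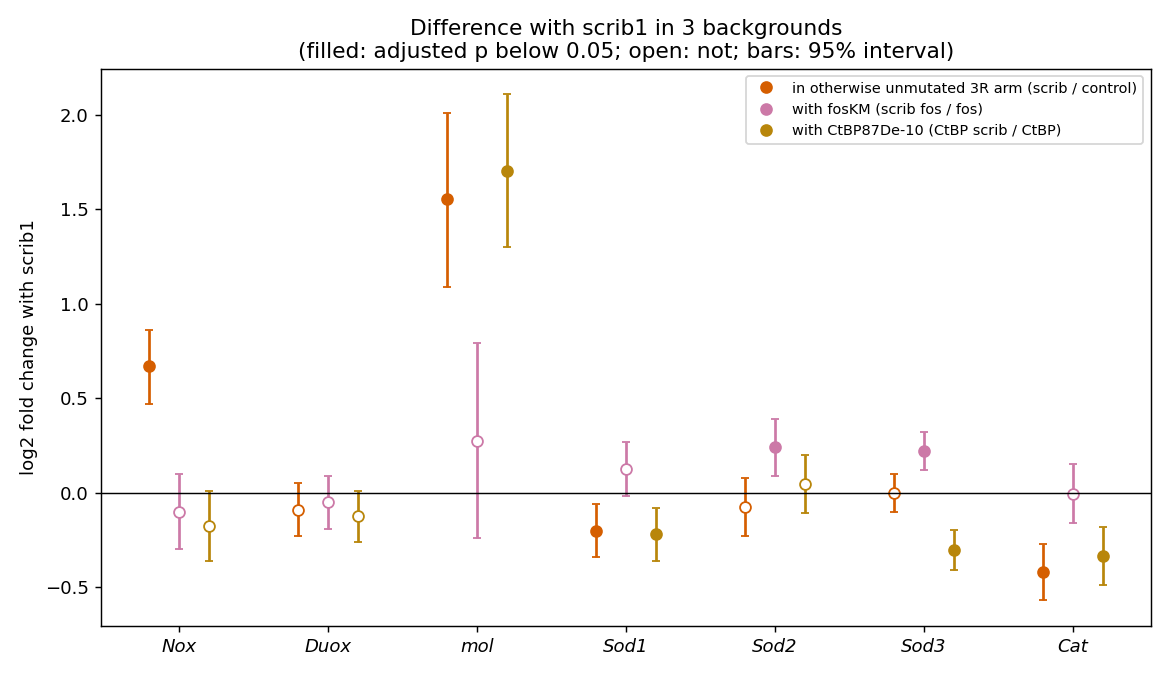
Log2 fold change that goes with scrib1 on the plain FRT82B arm, with fosKM and with CtBP87De-10, with 95% intervals; filled points passed the test. mol is at 1.55, 0.27 and 1.70 and Nox at 0.67, -0.10 and -0.17.

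The interaction of scrib1 with CtBP87De-10 set Nox and mol apart. Nox had a negative interaction (-0.84, SE 0.125, adjusted p = 0.000124): it was 1.59-fold and 2.06-fold higher in the single mutants and 1.82-fold higher in the double mutant. For mol the interaction was 0.15 with a 95% interval of -0.47 to 0.77 (adjusted p = 0.834), which leaves room for departures of either sign from a sum of the single log2 differences. Sod3 also had a negative interaction (-0.30, SE 0.066, adjusted p = 0.00365), with log2 differences of 0.00 and 0.04 in the single mutants and -0.26 in the double. Cat (0.08, -0.13 to 0.30), Sod2 (0.12, -0.10 to 0.34), Duox and Sod1 did not pass the test. Calls covered 10.5% of all tested genes, 5.43% positive and 5.06% negative, and the medians were -0.02 over the 7 genes and -0.01 over all.

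Across the 18 libraries, Pearson's r of log2(CPM + 1) was -0.952 between mol and Cat, 0.851 between Sod1 and Cat, -0.786 between Nox and Cat and 0.747 between Nox and mol. It was 0.801 between Sod1 and Sod3 and 0.745 between Sod3 and Cat. For mol it was -0.768 with Sod1, -0.756 with Sod3 and -0.71 with Duox. All other pairs were weaker. These values describe libraries that share genotype, so they are given without a test. Among 4873 protein-coding genes with a mean of at least 10 CPM, those most like mol were Qsox2 (r = 0.987), AOX3 (0.983) and Desat1 (0.98), which encode a sulfhydryl oxidase, an aldehyde oxidase and a fatty acid desaturase. Nox was most like Acf (0.936), Brf (0.907) and Elp3 (0.906), and Duox like Itpr (0.916), mnb (0.907) and garz (0.898). Sod1 was most like Etfb (0.976), scu (0.954) and Smn (0.948), Sod2 like HP1c (0.88), NdufV3 (0.872) and the peroxiredoxin gene Prx5 (0.871). Sod3 was most like shf (0.953), IP3K1 (0.925) and slp2 (0.92), and Cat like wbl (0.971), Hexo1 (0.97) and CRAT (0.963).

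Beyond the 7 genes, 58 genes of 7 further redox lists were looked up, of which 50 were tested. Against control, 17 of the 50 rose and 13 fell in scrib, where 27.8% of all tested genes were higher and 25.7% lower. In fos 0 rose and 1 fell (0.258% and 0.738% of all tested genes), and in CtBP 7 rose and 3 fell (7% and 7.46%). In scrib fos 14 rose and 12 fell (22.1% and 24.5%), and in CtBP scrib 21 rose and 12 fell (31.1% and 28.3%).

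Among other oxidases, 3 of 6 tested genes rose in scrib and in CtBP scrib, 2 rose in CtBP and 0 rose in scrib fos. The shares of all tested genes called higher were 27.8% in scrib, 31.1% in CtBP scrib, 7% in CtBP and 22.1% in scrib fos. The risers were the aldehyde oxidase genes, which are close paralogs whose reads may be split between copies. AOX3 stood at 39.5 ± 9.58 CPM in control, 121 ± 7.69 in scrib and 63.9 ± 11.5 in CtBP (SD, n = 3). In CtBP scrib its level was 268 ± 5.01 CPM, and the scrib fos libraries, at 36.6 to 39.9 CPM, lay within the range of control. Its log2 fold change was 1.62 in scrib (adjusted p = 1.29e-06), 0.70 in CtBP (adjusted p = 0.00927) and 2.76 in CtBP scrib (adjusted p = 3.71e-09). AOX4 rose by 1.40, 0.98 and 2.33 on the log2 scale in the same genotypes (adjusted p = 0.000125, 0.0154 and 7.34e-08), at no more than 3.34 CPM in any library. AOX1 rose in scrib (log2 1.89, adjusted p = 0.00106) and CtBP scrib (2.61, adjusted p = 4.35e-05). Mical, a flavoprotein oxidase that acts on actin, fell in scrib fos (log2 -0.27, adjusted p = 0.0358). The list's median log2 fold change was 0.73 in scrib and 1.19 in CtBP scrib, beside 0.01 over all tested genes in both.

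Of the 3 other genes of the dismutase family, Rsod, which encodes a relative of the dismutases, was called most often. It read 46.9 ± 5.93 CPM in control, 81.3 ± 3.75 in scrib and 66.9 ± 2.75 in CtBP (SD, n = 3). CtBP scrib was highest at 96.1 ± 2.19 CPM, and scrib fos, at 47.8 ± 1.12 CPM, was near control. It rose in scrib (log2 0.79, adjusted p = 3.42e-09), CtBP (0.51, adjusted p = 1.16e-05) and CtBP scrib (1.03, adjusted p = 3.46e-11). From scrib to scrib fos it fell by 0.77 (adjusted p = 1.12e-08). Ccs, the copper chaperone of Sod1, rose in CtBP scrib (0.23, adjusted p = 0.0182), where Sod1 fell. Sodq did not pass the test in any genotype against control and was lower in CtBP scrib than in CtBP (-0.90, adjusted p = 0.0085) and higher in scrib fos than in scrib (0.73, adjusted p = 0.0454).

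Peroxiredoxins and glutathione peroxidases remove peroxides with thiols. In scrib 3 of 8 tested rose and 0 fell, namely Prx3 (log2 0.32, adjusted p = 1.48e-05), Gtpx (0.35, adjusted p = 2.33e-05) and Prx6a (0.35, adjusted p = 0.000141). In scrib fos 7 of 8 rose and 0 fell. Prx4 (0.26, adjusted p = 1.97e-05) and Prx6a (0.34, adjusted p = 0.000264) had the smallest p, and the rise was largest for Prx6b (0.67, adjusted p = 0.00637). In CtBP scrib 3 rose and 1, Prx5, fell (-0.13, adjusted p = 0.0442), and in CtBP Prx6a rose (0.21, adjusted p = 0.0381) and Prx3 fell (-0.18, adjusted p = 0.0185). Of all tested genes 27.8% were higher and 25.7% lower in scrib, and 22.1% and 24.5% in scrib fos. The shares were 31.1% and 28.3% in CtBP scrib, and 7% and 7.46% in CtBP. The list's median was -0.01 in scrib and 0.23 in scrib fos, against 0.01 and -0.02 over all tested genes. Prx6a and Prx6b are paralogs, and whether they share reads was not tested.

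In the thioredoxin and glutathione system 3 of 10 tested genes rose and 2 fell in scrib, and 5 rose and 3 fell in CtBP scrib. Over all tested genes 27.8% were higher and 25.7% lower in scrib, and 31.1% and 28.3% in CtBP scrib. The thioredoxin gene Trx2 rose in scrib (log2 0.54, adjusted p = 4.28e-08), CtBP scrib (0.63, adjusted p = 3e-09) and scrib fos (0.27, adjusted p = 0.000382). Trxr1, the thioredoxin reductase, rose by 0.38, 0.34 and 0.21 in these genotypes (adjusted p = 4.73e-06, 1.25e-05 and 0.0029). The methionine sulfoxide reductase genes fell: SelR by 0.35 in scrib (adjusted p = 3.46e-05) and 0.31 in CtBP scrib (0.000107), and MsrA by 0.76 in CtBP scrib (1.1e-09) and 0.28 in CtBP (0.00212). Gss1 and Gss2, among those that rose in CtBP scrib, had near equal counts in every genotype (means of 232 CPM each in CtBP scrib), and their reads are uncertain.

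Of the haem peroxidases and the secreted catalase Irc, 3 of 4 tested genes fell and 0 rose in each of the 3 genotypes with scrib1. Of all tested genes 25.7% were lower in scrib, 24.5% in scrib fos and 28.3% in CtBP scrib. The list's median was -0.87 in scrib, -1.43 in scrib fos and -1.07 in CtBP scrib, beside 0.01, -0.02 and 0.01 over all tested genes. In scrib the genes that fell were cysu (log2 -2.12, adjusted p = 2.63e-09), Pxn (-1.03, adjusted p = 0.00567) and CG10211 (-0.71, adjusted p = 0.000105). The set was not the same in scrib fos, where Irc fell. The means of cysu were 32.7 CPM in control, 7.5 in scrib and 25.0 in scrib fos. Those of CG10211 were 72.7, 44.4 and 61.6 CPM. From scrib to scrib fos 2 of the 4 genes rose and 2 fell, beside 17.6% and 20.2% of all tested genes. Irc read 2.38 ± 0.25 CPM in control and 2.44 ± 0.23 in scrib, 1.17 ± 0.354 in fos and 0.429 ± 0.0827 in scrib fos (SD, n = 3). It fell in fos (log2 -1.03, adjusted p = 0.0297), the only further redox gene called there, and in scrib fos (-2.47, adjusted p = 2.27e-07), and did not pass the test in CtBP scrib (0.21, adjusted p = 0.419). Pxn (peroxidasin), a matrix enzyme made by blood cells, fell by 3.45 in scrib fos (adjusted p = 1.6e-06). That genotype had the lowest summed blood cell markers (124 to 148 CPM), and the median log2 fold change of these markers was -3.96. The part of blood cells in the fall of Pxn was not tested. cysu fell by 3.08 in CtBP scrib (adjusted p = 5.32e-11) and rose in CtBP (0.67, adjusted p = 0.00116).

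Among regulators and sensors of oxidative stress, 4 of 13 genes rose and 5 fell in scrib, and 5 rose and 2 fell in CtBP scrib. The shares over all tested genes were 27.8% higher and 25.7% lower in scrib, and 31.1% and 28.3% in CtBP scrib. The stress kinase gene p38a rose in scrib (log2 0.70, adjusted p = 8.92e-07) and CtBP scrib (0.91, adjusted p = 1.42e-08). cnc, the fly counterpart of Nrf2, rose in both (0.32, adjusted p = 0.000189, and 0.51, adjusted p = 4.35e-07) and fell in scrib fos (-0.25, adjusted p = 0.00232). Keap1, the inhibitor of cnc, fell in scrib (-0.29, adjusted p = 0.000691) and in scrib fos (-0.27, adjusted p = 0.0018). The sestrin gene Sesn fell in scrib (-1.34, adjusted p = 1.31e-06) and in scrib fos (-1.13, adjusted p = 1.22e-05). The medians of the list were 0.02 in scrib and 0.00 in CtBP scrib, beside 0.01 over all tested genes in each.

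All 6 genes listed as oxidase regulators were called in scrib, 3 higher and 3 lower, and likewise in CtBP scrib, where 53.5% and 59.4% of all tested genes were called. The list's median log2 fold change was -0.03 in scrib and 0.05 in CtBP scrib. The GTPase gene Rac2 rose in scrib (log2 0.63, adjusted p = 2.13e-10) and CtBP scrib (0.75, adjusted p = 8.69e-12), and the calmodulin gene Cam rose in both (0.49, adjusted p = 1.32e-07, and 0.62, adjusted p = 2.72e-09). The phospholipase C gene norpA fell in scrib (-0.55, adjusted p = 7.38e-06), CtBP scrib (-0.54, adjusted p = 6.12e-06) and scrib fos (-0.68, adjusted p = 9.64e-07). Rac2 was lower in scrib fos than in scrib (-0.71, adjusted p = 8.43e-11), with an interaction of scrib1 and fosKM of -0.63 (adjusted p = 2.68e-07), and the interactions of cnc (-0.55, adjusted p = 7.99e-05) and p38a (-0.75, adjusted p = 0.000149) were negative too.

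**Figure D5:**
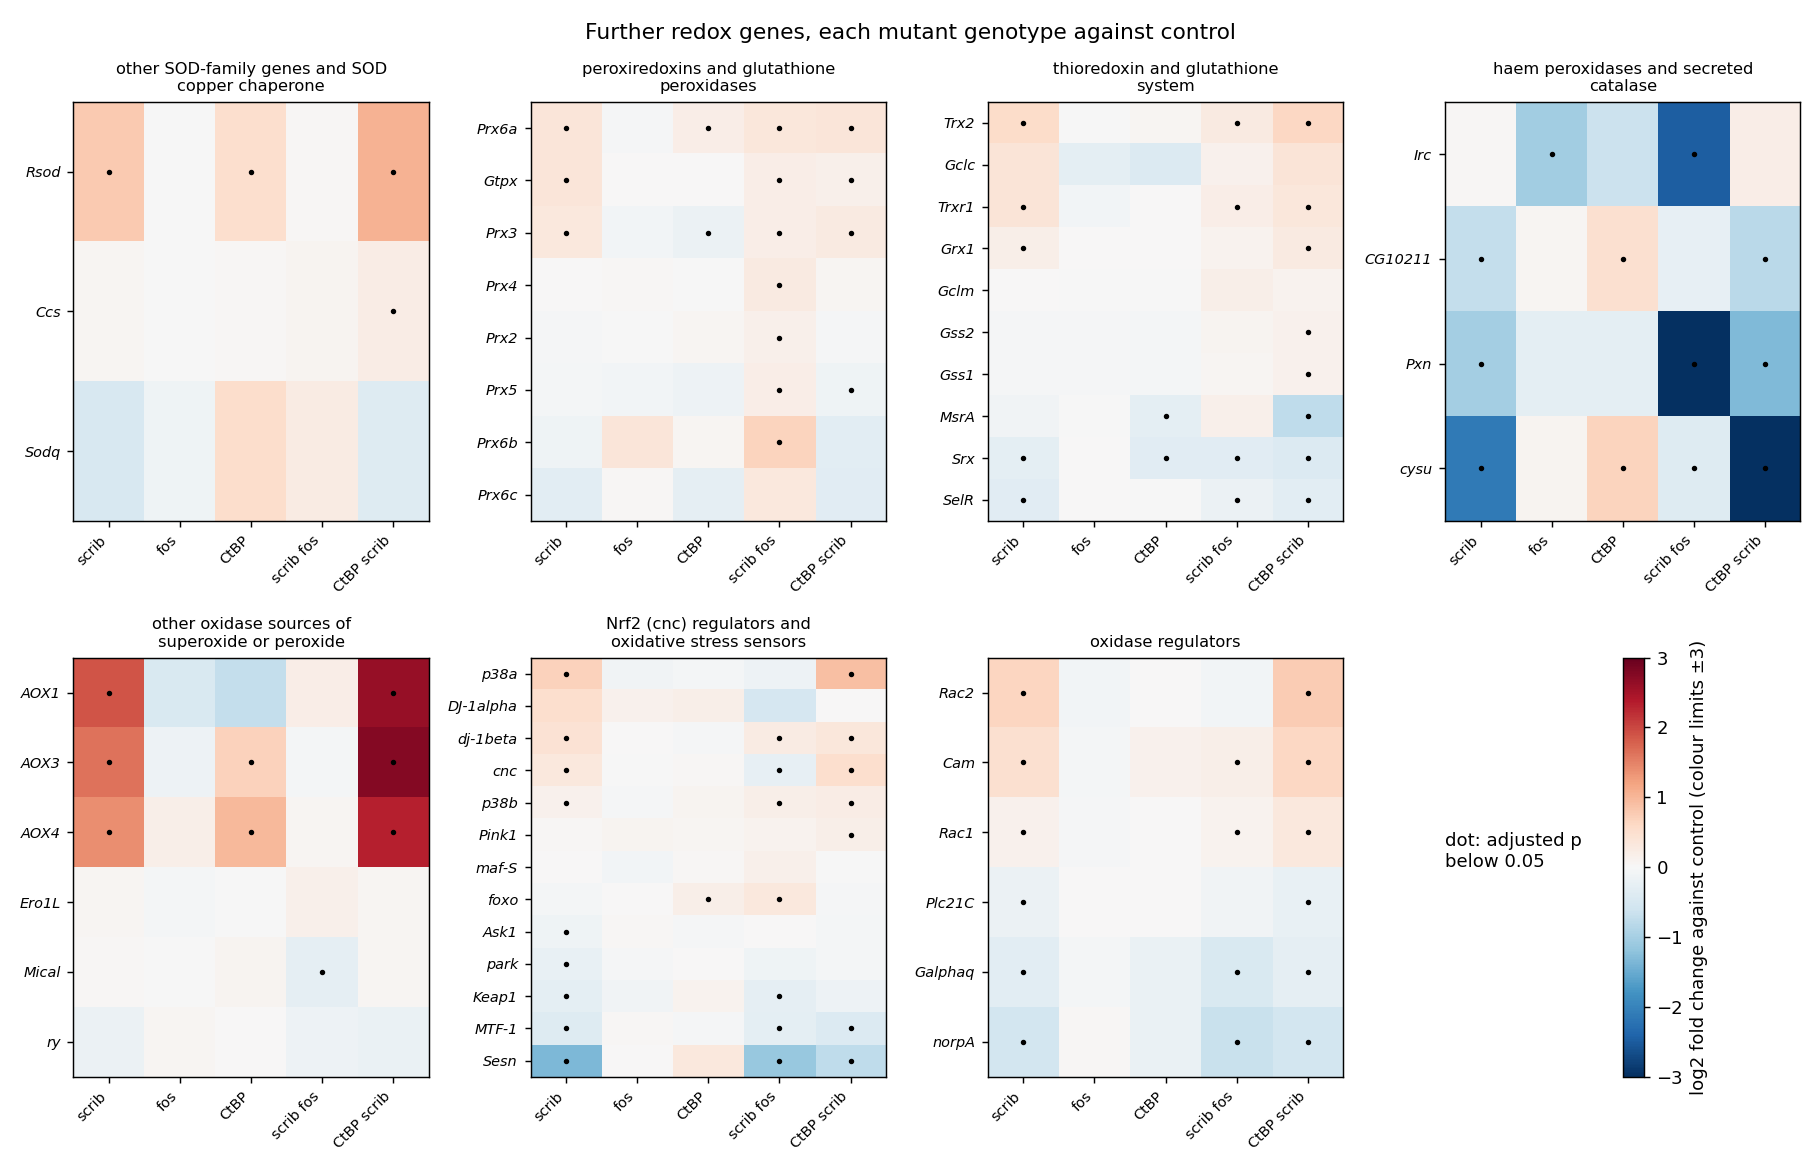
Log2 fold changes against control of the 50 further redox genes tested, by list, with colour limits of ±3 and a dot where the adjusted p was below 0.05. AOX3 reaches 2.76 in CtBP scrib, and Pxn in scrib fos (-3.45) and cysu in CtBP scrib (-3.08) lie past the colour limit.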

How the data were processed

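Per the labels' protocols, sorted cells were lysed in Trizol and sequencing used TruSeq RNA libraries. The tools named in the submitters' processing notes are Subread, featureCounts and edgeR, and the build is dm6. The authors deposited unnormalized read counts for each gene. Versions, annotation and strand setting: not given in the sources used here. Groups and replicate numbers came from the labels. Of 17529 genes, 17425 were matched by identifier to the Ensembl release 115 annotation for symbols, positions and union exon lengths, and 104 were not.

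The filter filterByExpr, grouped by genotype, kept 10834 genes and removed 6695. Counts scaled by TMM factors went into edgeR 4.0.16 under R 4.3.3 (glmQLFit, robust, glmQLFTest, 2-sided) in 1 model over 18 libraries, with 12 residual degrees of freedom and a biological coefficient of variation of 8.88%. Adjusted p-values are Benjamini-Hochberg over all 10834 genes in each comparison, and a gene was called below 0.05. There were 10 comparisons and 2 interactions. The SE is the size of the log2 fold change over the square root of F, and 95% intervals use Student's t with 12 degrees of freedom. CPM per kb divides by union exon length. Replicates differed by more than sampling noise, with chi-square values per degree of freedom of 25.2 to 127 for pairs with replicate 1 and 4.2 to 17.5 for replicates 2 and 3, so none was taken as a repeat.

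The 7 genes, the lists and the rules for named genes were chosen with earlier results of these data known. Named were the 7 genes, the 3 genes most like each by Pearson's r of log2 CPM (pseudocount 1, protein-coding genes of at least 10 CPM), and up to 4 genes of a further list with the smallest p in a comparison. A few others of a list (among them cnc, Keap1, Ccs, Sodq, Prx6b, Gss1, Gss2 and Irc) are named, chosen after their values were seen. A planned search of promoters for motifs was not run, since promoter sequences were not used here. The pipeline was checked on artificial counts. In a first run, recovery of 1.5-fold differences fell below the required share, and the requirement was then limited to folds of 2 and above. Differences of 1.5-fold or less can thus be missed. Other settings were DESeq2 1.42.0 size factors and its Wald test, library totals without TMM factors, no filter, a filter of 5 CPM in 3 libraries, the compared genotypes alone, a replicate block, no replicate 1, and each library left out.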

Additional observations from a re-analysis of the deposited data

Results flagged for a closer look

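For 8 results the log2 difference that goes with scrib1 differed between backgrounds by the interaction test of edgeR. They cover 6 of the 7 genes with fosKM and 2 with CtBP87De-10, beside 23.2% and 10.5% of all tested genes. With fosKM the interaction was -0.77 for Nox (SE 0.128, adjusted p = 0.000164), -1.28 for mol (SE 0.319, adjusted p = 0.00606), 0.41 for Cat (SE 0.1, adjusted p = 0.00436), 0.33 for Sod1 (SE 0.092, adjusted p = 0.0124), 0.32 for Sod2 (SE 0.099, adjusted p = 0.0258) and 0.22 for Sod3 (SE 0.066, adjusted p = 0.0171). With CtBP87De-10 it was -0.84 for Nox (SE 0.125, adjusted p = 0.000124) and -0.30 for Sod3 (SE 0.066, adjusted p = 0.00365). Over the other settings the interaction with fosKM ran from -0.87 to -0.68 for Nox and from -1.48 to -1.09 for mol, and that with CtBP87De-10 from -0.94 to -0.78 for Nox. The call for Sod2 with fosKM was lost in 7 of 20 other settings.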

How the results depend on the processing

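The 84 fold changes and interactions of the 7 genes gave 1260 values under other settings. Of these 1208 kept their side of the threshold, 31 lost a call, 21 gained one and none reversed a called direction. The 1208 include values that changed sign without being called, such as mol in fos against control, which ran from -0.41 to 0.09. The changed calls fell on Sod2 (18), Duox (15), Sod1 (11), Cat (5) and Nox (3), and none on mol or Sod3. The rise of mol in scrib ran from 1.39 to 1.69 on the log2 scale, that of Nox in scrib from 0.59 to 0.78, that of mol in CtBP scrib from 2.65 to 2.99 and that of Nox in CtBP from 0.97 to 1.14. In scrib fos against control, 3 of the 7 genes were called, and 1 was called with library totals, with the 5 CPM filter and with the compared genotypes alone; leaving out single libraries gave 1 to 3. In fos against control 108 genes were called over the whole table, and 57 to 96 without single libraries (71 without fos replicate 1, 57 without fos replicate 2). The cause of these shifts was not tested. A fit with the replicate number as a block changed none of the 84 calls and left 4 of the 7 genes called in scrib, and 15 of 45 correlations between same-numbered libraries were above 0.1 (median 0.0523), among them all 3 between control and scrib (0.126, 0.119 and 0.143), where the block called 5782 genes against 5796 without it. For 10 of 18 libraries the mean correlation with libraries of other genotypes was highest for their own replicate number, a hint from the data and not the design. The numbers were not taken to pair the samples over the 6 genotypes, since most of the 45 correlations were not above 0.1. Depth limits mol, with 34 to 422 counts per library.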
